A study of Mus musculus with 97 samples.

Results

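Genes that act when cells copy their DNA and divide were followed through the hearts and jejuna of mice given naproxen, celecoxib or tryptophan. The set comprised 43 genes, taken by gene symbol from a table of 51368 genes. It holds 18 S phase genes, whose products start and carry out DNA replication, and 25 mitotic genes, whose products condense, align and part the chromosomes. All 43 symbols were found once each. RNA-seq libraries of 97 C57BL/6 mice from the Jackson Laboratory, 11 weeks old, were grouped by treatment into 14 groups. All mice ate chow for 3 weeks, with or without a cyclooxygenase inhibitor mixed in. In experiment 1, hearts came from 5 females given naproxen at 1323 ppm of the diet, 5 females on control diet, 5 males given naproxen at 1610 ppm and 5 males on control diet, none of them injected. In experiment 2, hearts came from 8 females given naproxen at 1323 ppm plus tryptophan, 7 females given naproxen with injections of phosphate-buffered saline (PBS) and 8 PBS-injected controls. Experiment 3 compared hearts of 8 females given tryptophan with those of 8 PBS-injected controls. Experiment 4 sampled jejunum, the middle part of the small intestine, from 7 females given naproxen plus tryptophan, 7 given naproxen, 8 given celecoxib at 550 ppm, 8 given tryptophan and 8 controls, with PBS injections in the groups that had no tryptophan. Tryptophan was injected into the peritoneum at 50 mg/kg each day of the last week. Naproxen blocks both cyclooxygenases and celecoxib blocks mainly cyclooxygenase 2, and they were fed at different doses. Each heart was used whole and each jejunum as a piece of flushed gut wall, so every library mixes many cell types.

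In a dividing cell the G1/S regulators switch on the E2F transcription factors, whose targets license and fire replication origins and supply nucleotides. Later, in G2 and mitosis, a second wave of genes is switched on through B-MYB and FOXM1, and in resting cells the DREAM complex holds it down at promoter sites called CHR elements. Adult heart muscle cells divide rarely, so division genes in the heart come largely from other cells such as blood, endothelial and interstitial cells. The epithelium of the jejunum is renewed all the time by dividing cells in the crypts.

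Promoter letters tied to these waves were searched as a property that was not used to choose the genes. RefSeq windows on the mouse build GRCm38.p6, from 250 bases before to 50 bases after the annotated start, were found for 35 of the 43 genes and for 27025 genes in all. Both strands were searched for the letters TTTGAA of the CHR element, for its less common variant form TTCGAA, for the CCAAT box that the factor NF-Y binds, and for E2F sites (TTTCCCGC, TTTGGCGC, TTTCGCGC or TTTGCCGC). The table holds 32851 windows, and a gene was counted where any of its windows held a match. A CHR element was present in 15 of 20 mitotic promoters (75.0%) and in 3 of 15 S phase promoters, beside 21.7% of the 27025 genes. An E2F site was present in 1 of 20 mitotic promoters (5.0%) and in 6 of 15 S phase promoters (40.0%), beside 2.6% of all genes. With only the 150 bases before the start searched, the CHR counts were 7 of 20 mitotic and 1 of 15 S phase promoters, and the E2F counts 1 of 20 and 3 of 15. A CCAAT box was present in 17 of 20 mitotic and 9 of 15 S phase promoters, beside 41.1% of all genes. A match is a description of letters, not evidence of binding. The 4 promoters below belong to members with small p-values in the jejunum comparison of naproxen with celecoxib. They are shown 5′ to 3′ in the direction of transcription, with every match to a searched motif on either strand in capitals.
Mki67: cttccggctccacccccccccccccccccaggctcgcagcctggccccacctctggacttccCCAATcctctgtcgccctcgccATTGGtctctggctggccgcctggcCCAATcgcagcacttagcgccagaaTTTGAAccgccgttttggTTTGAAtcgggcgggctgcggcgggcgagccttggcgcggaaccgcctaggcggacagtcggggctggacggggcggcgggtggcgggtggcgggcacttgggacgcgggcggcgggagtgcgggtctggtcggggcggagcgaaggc
Cdc20: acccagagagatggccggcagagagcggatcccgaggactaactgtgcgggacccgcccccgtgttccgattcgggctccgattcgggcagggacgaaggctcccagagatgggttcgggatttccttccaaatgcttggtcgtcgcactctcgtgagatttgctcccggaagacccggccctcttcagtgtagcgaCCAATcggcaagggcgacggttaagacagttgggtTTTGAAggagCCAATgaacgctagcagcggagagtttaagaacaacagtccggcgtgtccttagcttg
Mcm2: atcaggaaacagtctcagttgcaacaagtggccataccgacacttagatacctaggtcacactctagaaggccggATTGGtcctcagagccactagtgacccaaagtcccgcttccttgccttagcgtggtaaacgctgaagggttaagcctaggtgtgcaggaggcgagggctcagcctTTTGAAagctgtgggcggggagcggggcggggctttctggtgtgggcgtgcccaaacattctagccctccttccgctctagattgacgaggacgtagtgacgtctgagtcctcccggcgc
Mcm6: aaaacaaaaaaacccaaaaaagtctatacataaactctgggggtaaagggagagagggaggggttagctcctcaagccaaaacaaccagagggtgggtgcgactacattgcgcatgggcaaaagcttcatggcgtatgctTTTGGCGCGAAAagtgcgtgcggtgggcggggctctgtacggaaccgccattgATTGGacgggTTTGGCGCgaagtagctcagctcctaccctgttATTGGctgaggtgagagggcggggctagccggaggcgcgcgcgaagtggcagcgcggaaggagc
The Mki67 window lies at chr7:135716330-135716629 and the Cdc20 window at chr4:118437294-118437593, both on the minus strand. Mki67 has CHR elements starting at positions -116 and -98 from the annotated start and CCAAT boxes at -188, -166 and -141, and Cdc20 has a CHR element at -18 and CCAAT boxes at -53 and -8. The Mcm2 window lies at chr6:88898731-88899030 and the Mcm6 window at chr1:128359656-128359955, also on the minus strand. Mcm6 has E2F matches at -110, -106 and -47, of which those at -110 and -106 overlap on opposite strands, and no CHR match. Mcm2 has a CHR match at -70 and a CCAAT box at -175, and none of the searched E2F letters in this window, so the printed pair of S phase promoters differ from each other.

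Rounded to the nearest 10000, estimated counts summed to 26300000 to 76360000 per heart library and to 10110000 to 28540000 per jejunum library. Levels below are CPM (counts per 1000000) scaled by library composition. Tissue labels matched their markers: the summed level of 8 heart muscle markers was 26900 to 60400 CPM in hearts and 16.4 to 77.2 CPM in jejuna. In jejunum every member averaged at least 1 CPM, whereas 20 of the 25 mitotic and 3 of the 18 S phase members averaged under 1 CPM in the hearts of experiment 3. Per kilobase of exon, the median mitotic member was at 4.01 CPM in control jejunum, against 0.118 CPM in control hearts of experiment 3, and the median S phase member at 4.62 CPM, against 0.657 CPM. Jejunum-to-heart ratios of the per-kilobase level were largest for the mitotic genes Ccnb1 (cyclin B1, 166), Top2a (topoisomerase II alpha, 118) and Bub1 (a spindle checkpoint kinase, 117). Gmnn (geminin, which blocks relicensing of origins, 0.755), Cenpf (a kinetochore protein, 0.895) and Cenpa (the centromere histone, 0.659) were not higher in jejunum. Heart libraries were made from poly-A RNA and jejunum libraries after ribosomal RNA depletion, chosen because the RNA integrity numbers of jejuna were under 8, and the part of this difference in the ratios was not tested. In control jejunum the highest per-kilobase levels were those of Pcna, the replication clamp, at 33.9 ± 5.2 CPM (SD, n = 8), Gmnn at 14.1 ± 2.5 CPM and Mki67, the Ki-67 proliferation marker, at 14 ± 1.9 CPM. In control hearts of experiment 3 Gmnn was at 18.7 ± 1.8 CPM per kilobase, Pcna at 11.6 ± 1.1 CPM and Mki67 at 0.211 ± 0.073 CPM (SD, n = 8).

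Across 15 comparisons, 8 in hearts and 7 in jejuna, no member reached an adjusted p of 0.05 in edgeR's quasi-likelihood test with Benjamini-Hochberg adjustment over all genes tested. Few genes of any kind did. Fold changes below are log2 values, and p-values are two-sided. The standard errors given with them were worked back from each change and its quasi-likelihood test statistic. In several comparisons most members lay on one side of 0. The largest counts at an unadjusted p under 0.05 were in naproxen against control hearts of experiment 2 and in naproxen against celecoxib jejuna. In the first, 22 of 43 were higher and none lower, beside 2.04% of all genes higher. In the second, 23 of 43 were lower and none higher, beside 7.69% of all genes lower. Leaving out each library in turn gave counts of 5 to 23 in the first and 12 to 30 in the second. Members are not independent of one another. In bulk tissue, fewer dividing cells and less RNA per dividing cell cannot be told apart.

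**Figure D1:**
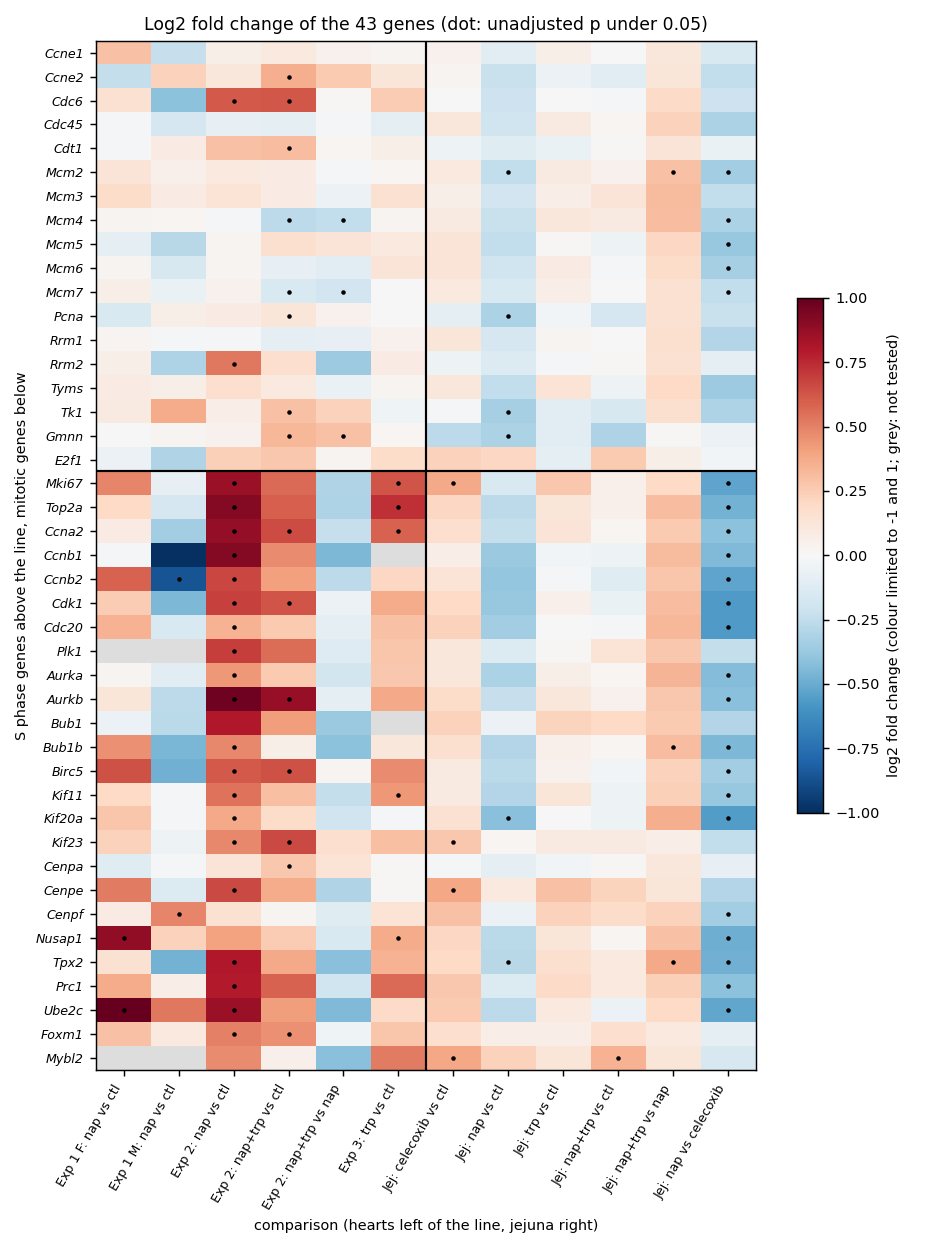
Log2 fold changes of the 43 cell cycle genes (rows, S phase genes above the line and mitotic genes below) in 12 comparisons (columns, hearts on the left and jejuna on the right); a dot marks an unadjusted p under 0.05. Naproxen against control in experiment 2 holds 22 dots, all for higher levels, and naproxen against celecoxib in jejunum holds 23, all for lower levels. At the same threshold, 2.04% of all tested genes were higher in the first and 7.69% lower in the second.

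The effect of naproxen on hearts of injected females was measured in experiment 2. All 25 mitotic genes had a positive change, with a median of 0.66, beside a median of 0.07 for the 18 S phase genes and 0.01 for all genes. Of the 43, none was called (0% of the 16085 tested genes were). At an unadjusted p under 0.05, 20 mitotic and 2 S phase members were higher and none was lower, 22 of 43 members beside 2.04% of all tested genes. With the same threshold DESeq2 gave 21 and limma-voom 13, and neither called a member. Controls were shared with the comparison of naproxen plus tryptophan, so the values of the 3 groups are given side by side.

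Chromosome proteins were led by Mki67 and Top2a. Mki67 ranged from 2.08 to 5.35 CPM (median 3.73) in hearts given naproxen plus tryptophan, from 1.92 to 12.4 CPM (median 3.33) in naproxen hearts and from 1.3 to 3.78 CPM (median 2.52) in control hearts. Top2a, which untangles sister DNA strands, ranged from 0.949 to 3.08 CPM (median 1.83), from 0.89 to 6.57 CPM (median 1.42) and from 0.603 to 2.29 CPM (median 1.1) in the same groups. For both genes the groups overlapped, and the highest naproxen value came from 1 heart, replicate 3. Naproxen against control gave 0.86 ± 0.33 for Mki67 (adjusted p = 1) and 0.92 ± 0.37 for Top2a (adjusted p = 1).

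Cyclin A2, encoded by Ccna2 and needed in S phase and for entry into mitosis, had the smallest p of the set in this comparison. Its level was 0.642 to 1.12 CPM (median 0.824) with naproxen plus tryptophan, 0.482 to 1.78 CPM (median 0.775) with naproxen and 0.415 to 0.73 CPM (median 0.521) in controls. The change with naproxen was 0.88 ± 0.23, a ratio of 1.84 (edgeR adjusted p = 0.668). All 4 genes of the mitotic cyclins and their kinase were higher at an unadjusted p under 0.05: besides Ccna2, Cdk1 was at 0.68 ± 0.28, Ccnb2 at 0.67 and Ccnb1 at 0.92 ± 0.43. Ccna2 shares 510 of its 4083 exon bases with Exosc9 on the opposite strand, and whether reads were counted by strand is not stated in the labels used here.

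Checkpoint genes and those of the anaphase-promoting complex followed the same direction. Ube2c, which encodes the complex's ubiquitin-conjugating enzyme, was at 0.251 to 0.742 CPM (median 0.421) with naproxen plus tryptophan, 0.466 to 1.17 CPM (median 0.526) with naproxen and 0.204 to 0.533 CPM (median 0.332) in controls. Its change with naproxen was 0.86 ± 0.27 (adjusted p = 1). Ube2c shares 592 of 2600 exon bases with Tnnc2, a muscle troponin gene, on the opposite strand. Among the mitotic kinases and their passenger proteins, Aurkb was at 0.97 ± 0.38, Plk1 at 0.69, Birc5 (survivin) at 0.61 and Aurka at 0.43, all with an unadjusted p under 0.05 and an adjusted p of 1.

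Genes of the spindle and of cell cleavage gave 5 of 6 at an unadjusted p under 0.05. Tpx2, a spindle assembly factor, was at 0.42 to 0.926 CPM (median 0.687) with naproxen plus tryptophan, 0.406 to 1.84 CPM (median 0.775) with naproxen and 0.358 to 0.729 CPM (median 0.539) in controls, a change of 0.80 ± 0.25 with naproxen (adjusted p = 1). Kif11, a motor that pushes spindle poles apart, was at 0.54 ± 0.18 (adjusted p = 1). Centromere genes were mixed: Cenpe, a kinetochore motor, was at 0.66 and had an unadjusted p under 0.05, with Cenpf at 0.15 ± 0.26 and Cenpa at 0.13. Of the transcription factors of the mitotic wave, Foxm1 was at 0.50 and Mybl2, which encodes B-MYB, at 0.47.

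S phase genes differed less in the same hearts. Cdc6, which loads the MCM helicase, was at 0.61 ± 0.21 (adjusted p = 1) and Rrm2, the small subunit of ribonucleotide reductase, at 0.53 ± 0.19 (adjusted p = 1). Cdc6 lay between 0.341 and 0.605 CPM (median 0.472) with naproxen plus tryptophan, between 0.31 and 0.679 CPM (median 0.419) with naproxen and between 0.207 and 0.433 CPM (median 0.283) in controls. The MCM helicase genes were near 0: Mcm2 at 0.10 ± 0.11, Mcm7 at 0.04, Mcm6 at 0.03 and Mcm4 at -0.01. Pcna was at 0.08 ± 0.06. The medians of the S phase roles were 0.11 for 3 G1/S regulators, 0.04 for 10 licensing and firing genes and 0.08 for 5 clamp and nucleotide supply genes. Those of the mitotic roles reached 0.89 for the chromosome proteins and 0.78 for the cyclins and Cdk1, with 0.15 for the centromere genes as the lowest.

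**Figure D2:**
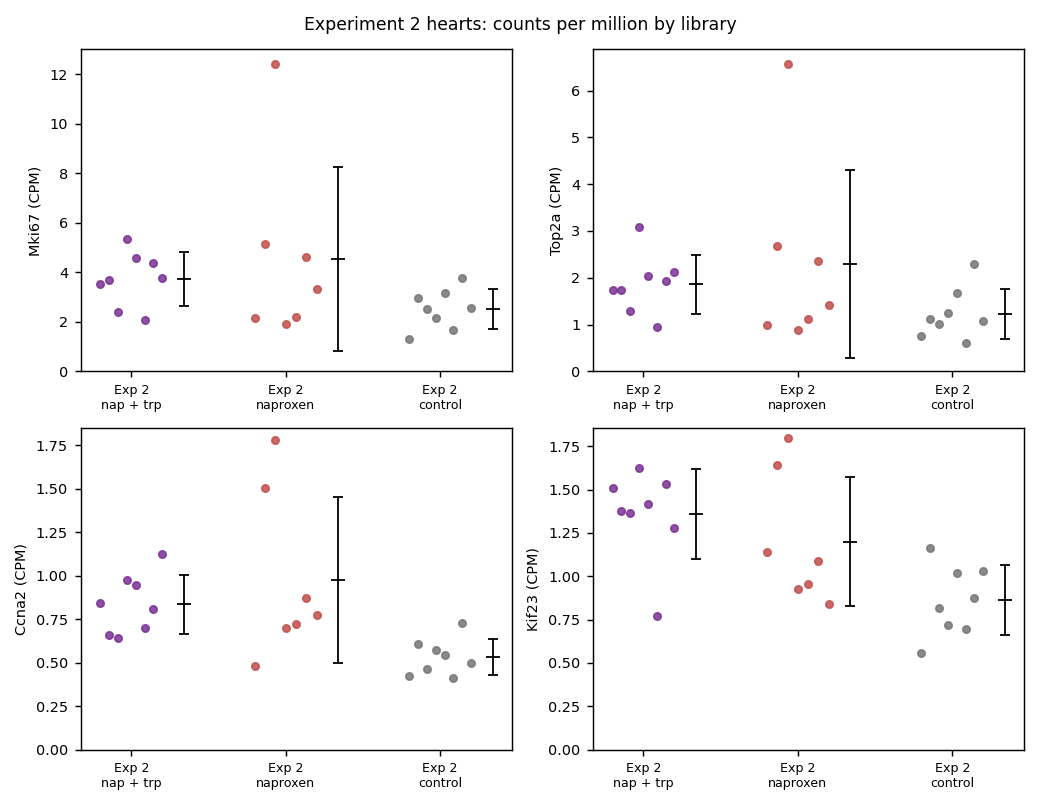
Levels (CPM) of Mki67, Top2a, Ccna2 and Kif23 in hearts of experiment 2 given naproxen plus tryptophan, naproxen, or neither; points are libraries, bars are means with SD. The groups overlap for each gene, and 1 naproxen heart reaches 12.4 CPM for Mki67 and 6.57 CPM for Top2a.

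A single naproxen heart stood apart from the others. Naproxen replicate 3 was the highest of its group for 23 of 25 mitotic and 11 of 18 S phase members. Its mean over the mitotic genes, as log2(CPM + 0.1), was 1.08, whereas the other naproxen hearts reached at most 0.43. The mitotic mean was 0.06 ± 0.22 with naproxen plus tryptophan (n = 8), 0.15 ± 0.48 with naproxen (n = 7) and -0.30 ± 0.22 in controls (SD, n = 8). Without that heart, 5 members (1 S phase and 4 mitotic) instead of 22 were higher at an unadjusted p under 0.05, and the median change was 0.35 for mitotic and 0.04 for S phase genes. Without control replicate 1 the count was 12. The same heart had a summed level of 84.5 CPM for 7 B cell markers, whose sums were 3.82 to 84.5 CPM (median 5.19) in naproxen hearts and 5.11 to 16.3 CPM (median 10.4) in control hearts. Neutrophil markers, of which 6 of 8 could be tested, were also higher with naproxen at a median of 2.22, with 5 of the 6 at an unadjusted p under 0.05. Their summed level was 9.82 to 24 CPM (median 12) in naproxen hearts and 2.31 to 6.2 CPM (median 5.22) in control hearts. The part of these cells in the result was not tested.

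**Figure D3:**
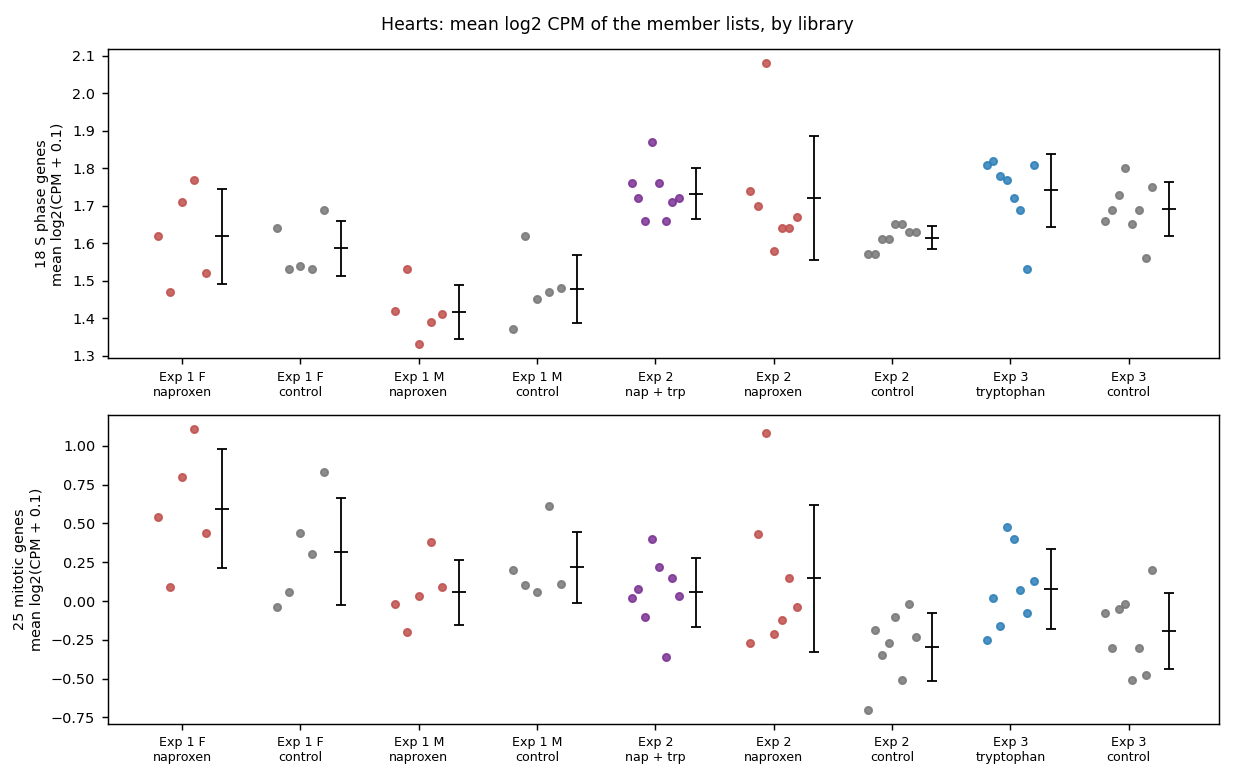
Mean log2(CPM + 0.1) of the 18 S phase and of the 25 mitotic genes in each heart library, by group of experiments 1 to 3; points are libraries and bars are means with SD. In experiment 2 the mitotic mean is 0.15 ± 0.48 in naproxen hearts, with 1 heart at 1.08, and -0.30 ± 0.22 in control hearts.

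Naproxen plus tryptophan, set against the same control hearts, also gave a positive change for all 25 mitotic genes (median 0.42, beside 0.11 for S phase genes). No member was called, beside 0.255% of all genes tested (41 of 16085). In this comparison many genes of every kind differed: 10.4% of all genes were higher and 6.81% lower at an unadjusted p under 0.05. Of the members, 13 were higher (6 S phase and 7 mitotic) and 2 were lower, both S phase. DESeq2 gave 12 higher and 2 lower at that threshold and called 1 member, Mcm4, and limma-voom gave 12 and 2 and called none. Of all genes, DESeq2 called 477 of 16085.

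Kif23, a motor of the central spindle needed for cell cleavage, was at 0.77 to 1.62 CPM (median 1.4) with naproxen plus tryptophan, 0.84 to 1.8 CPM (median 1.09) with naproxen and 0.559 to 1.16 CPM (median 0.848) in controls. Its change against control was 0.66 ± 0.18 (adjusted p = 0.103). The MCM helicase subunits Mcm4 and Mcm7 went the other way. Mcm4 was at 5.98 to 7.27 CPM (median 6.77) with naproxen plus tryptophan, 6.42 to 9.42 CPM (median 8.27) with naproxen and 6.92 to 8.94 CPM (median 8.25) in controls, a change of -0.26 ± 0.08 against control (adjusted p = 0.114). The naproxen plus tryptophan hearts lay mostly under the controls, with a small overlap between 6.92 and 7.27 CPM. Mcm7 was at -0.15 ± 0.06 (adjusted p = 0.233), and it shares 321 of 4426 exon bases with Ap4m1 on the opposite strand. Cdc6 (0.62 ± 0.20, adjusted p = 0.144), Cenpa (0.27 ± 0.09, adjusted p = 0.146), Ccna2 (0.65 ± 0.22, adjusted p = 0.158) and Gmnn (0.33 ± 0.12, adjusted p = 0.183) followed with positive changes. Leaving out naproxen plus tryptophan replicate 4, which had a B cell sum of 53.2 CPM and the highest value of its group for 12 of 25 mitotic members, left 6 members higher. Leaving out control replicate 1 left 6, and leaving out control replicate 4 left 8.

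Tryptophan on top of naproxen was compared within naproxen hearts. Members were close to even or lower: 31 of 43 had a negative change, with a median of -0.20 for mitotic and 0.00 for S phase genes. No member passed the adjusted threshold (0.0933% of tested genes did, 15 of 16085). At an unadjusted p under 0.05 there were 2 lower members, both MCM subunits, beside 4.79% of all genes. There was 1 higher member, beside 805 of all 16085 genes. Neither share was above that of all genes. Mcm4 was at -0.25 ± 0.08 (adjusted p = 0.331), Mcm7 at -0.19 ± 0.06 (adjusted p = 0.38) and Gmnn at 0.29 ± 0.13 (adjusted p = 0.466). DESeq2 and limma-voom each gave 2 lower and 1 higher and called none. Gmnn ranged from 22.3 to 34.1 CPM (median 27.1) with both agents, from 15.4 to 31.2 CPM (median 21) with naproxen and from 16.4 to 27.7 CPM (median 21.5) in controls, with wide overlap. Without naproxen replicate 3 the mitotic median was 0.08, on the other side of 0. The count of 2 lower members was 4 without naproxen replicate 1 or 5 and 5 without naproxen replicate 4.

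In hearts that received no injections, experiment 1, the changes of the members were less even. Females given naproxen had a median change of 0.25 for the mitotic and 0.03 for the S phase genes, with 32 of 41 tested members positive. Plk1 and Mybl2 were too low to test. None of the 41 was called, beside 0.0132% of 15152 genes, and 2 members were higher at an unadjusted p under 0.05, beside 3.12% of all genes. Ube2c was at 0.305, 0.458, 0.88, 2.66 and 2.67 CPM in naproxen females, against 0.168, 0.305, 0.378, 0.589 and 0.705 CPM in control females, a change of 1.70 ± 0.56 (edgeR adjusted p = 0.546). Of the 5 naproxen hearts, 3 lay above every control heart. Nusap1, a protein that bundles spindle microtubules, was at 0.89 ± 0.39 (edgeR adjusted p = 0.691). Its levels were 0.948, 1.36, 1.73, 2.66 and 4.03 CPM in naproxen females and 0.641, 1.08, 1.18, 1.28 and 1.63 CPM in control females. Both tools run beside edgeR called no member, with 2 (DESeq2) and 1 (limma-voom) at an unadjusted p under 0.05. Without female naproxen replicate 4, the highest of its group for 17 of 25 mitotic genes, the median over all members was 0.02, against 0.12 with it. The count of 2 higher members was 6 without female control replicate 5, 5 without female naproxen replicate 2, and 1 without female control replicate 2 or female naproxen replicate 3. Neutrophil markers had a median change of 2.92 (5 of 6 tested at an unadjusted p under 0.05), with sums of 4.51 to 285 CPM (median 8.88) in naproxen females and 3.65 to 21 CPM (median 7.17) in control females. Erythroid markers had one of 2.44 (7 of 8 tested), with sums of 1090 to 14300 CPM (median 3040) in naproxen females and 882 to 1850 CPM (median 1150) in control females. The part of these cells in the result was not tested.

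Males given naproxen had a median change of -0.14 for the mitotic and 0.00 for the S phase genes. None of the 41 tested members was called (0% of 15152 genes were). At an unadjusted p under 0.05, 1 was lower beside 2.94% of all genes, and 1 was higher beside 718 of all 15152. Neither share was above that of all genes. Ccnb2, cyclin B2, was at 0.0423, 0.172, 0.275, 0.293 and 0.438 CPM in naproxen males and at 0.234, 0.414, 0.467, 0.578 and 0.579 CPM in control males, a change of -0.86 ± 0.41 (edgeR adjusted p = 0.643). Cenpf was at 25.5, 35.5, 37.6, 52 and 58.4 CPM in naproxen males, against 22.1, 23.2, 26.8, 37.1 and 39 CPM in control males, a change of 0.49 ± 0.23 (edgeR adjusted p = 0.636). The groups overlapped for both genes. DESeq2 gave 1 higher and 2 lower members at that threshold and limma-voom 2 lower, and neither called one. Male control replicate 9 was the highest of its group for 19 of 25 mitotic genes, and without it no member was lower at that threshold. The same held without male control replicate 6 or 10 or male naproxen replicate 6, 7 or 8, and there were 3 without male control replicate 8.

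The difference between the sexes was tested directly, as the naproxen effect in males minus that in females. It was negative for 34 of 41 members (median -0.43 for mitotic and -0.09 for S phase genes), but no member was called, nor was any other gene (0% of 15152). At an unadjusted p under 0.05 there were 3 lower members beside 2.12% of all genes: Ccnb2 at -1.45 ± 0.55, Birc5 at -1.12 ± 0.47 and the checkpoint kinase gene Bub1b at -0.93 ± 0.39, each with an adjusted p of 0.759. DESeq2 gave 3 and limma-voom 2, with none called. The sex difference was also negative for 6 of 6 tested neutrophil markers (median -3.10). So it was for 7 of 7 macrophage markers (median -0.75) and 7 of 8 erythroid markers (median -1.28). At an unadjusted p under 0.05, 2 neutrophil, 1 macrophage and 1 erythroid marker were lower, beside 2.12% of all genes. Neutrophil sums were 3.63 to 4.42 CPM in naproxen males, 3.81 to 7.21 CPM in control males, 4.51 to 285 CPM in naproxen females and 3.65 to 21 CPM in control females, and the part of these cells in the result was not tested. The count of members was 1 without male control replicate 9 or female naproxen replicate 4, and 5, 6 and 7 without male naproxen replicate 9, female naproxen replicate 2 and female control replicate 5. The naproxen dose was also higher in males, and sex cannot be told apart from dose.

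The naproxen effects of injected and uninjected females were also compared, as experiment 2 minus experiment 1. No call fell on a member, beside 0.0121% of 16554 genes, and none had an unadjusted p under 0.05 by edgeR, DESeq2 or limma-voom. The median difference was 0.24 for mitotic and 0.00 for S phase genes. Ccna2 had the smallest p, at 0.79 ± 0.41 (adjusted p = 0.981). Leaving out 1 heart gave at most 2 members higher at an unadjusted p under 0.05. There were 2 without female control replicate 1 or 2 or female naproxen replicate 3 of experiment 1, or control replicate 7 of experiment 2. There was 1 without female naproxen replicate 4 of experiment 1 or naproxen replicate 1 or 4 of experiment 2. Without female naproxen replicate 5 of experiment 1, 1 mitotic member was lower instead. Injection and experiment cannot be told apart here.

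Tryptophan alone was tested in experiment 3. Mitotic genes were again on the positive side, 22 of 23 tested (median 0.30), with an S phase median of 0.03. Ccnb1 and Bub1 were too low to test. No member was called, nor was any gene (0% of 15805), and 5 members, all mitotic, were higher at an unadjusted p under 0.05, beside 1.63% of all genes. DESeq2 and limma-voom each gave 5 and called none. These values come from other control hearts than those of experiment 2.

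Kif11 was at 0.822 to 1.45 CPM (median 1.17) in tryptophan hearts and 0.695 to 1.06 CPM (median 0.892) in control hearts, a change of 0.43 ± 0.14 (adjusted p = 1). Top2a was at 0.918 to 2.47 CPM (median 1.48) in tryptophan hearts and 0.329 to 1.98 CPM (median 0.918) in control hearts, a change of 0.73 ± 0.25 (adjusted p = 1). Mki67 was at 1.96 to 4.78 CPM (median 3.06) in tryptophan hearts and 0.904 to 3.06 CPM (median 2.21) in control hearts, a change of 0.63 ± 0.25 (adjusted p = 1). For Mki67 the median tryptophan heart thus lay at the highest control heart, while the lower parts of the ranges overlapped. Ccna2 (0.59 ± 0.23) and Nusap1 (0.37 ± 0.16) completed the 5. Pcna did not separate the groups, at 25.1 to 30.6 CPM (median 28.1) with tryptophan and 25.6 to 32.5 CPM (median 26.7) in controls.

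The 4 dissection batches of experiment 3 gave median changes over the members of 0.12, 0.10, 0.23 and 0.11, all positive. Leaving out 1 heart moved the count of 5 to between 2 (without tryptophan replicate 8) and 9 (without control replicate 3), with 3 without control replicate 8 or 2 and 8 without tryptophan replicate 7. Neutrophil markers had a median change of 0.25 (0 of 6 tested at an unadjusted p under 0.05), with sums of 7.9 to 23.2 CPM in tryptophan hearts and 4.31 to 19.6 CPM in control hearts. B cell markers had one of 0.33 (1 of 7), with sums of 4.28 to 10.5 CPM in tryptophan hearts and 3.02 to 10.6 CPM in control hearts, and their part in the result was not tested.

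In the jejunum the inhibitors were compared directly, naproxen at 1323 ppm with celecoxib at 550 ppm. All 43 members had a negative change, lower in naproxen jejuna, with medians of -0.42 for mitotic and -0.25 for S phase genes, while the median of all genes was 0.01. No member was called, nor was any gene (0% of 17185). At an unadjusted p under 0.05, 23 members were lower (18 mitotic and 5 S phase) and none higher, beside 7.69% of all genes. DESeq2 gave 23 and called 1, Tpx2, and limma-voom gave 29 and called none. Of all genes, DESeq2 called 291 of 17185.

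Tpx2 was at 5.86 to 16.2 CPM (median 12.4) in naproxen jejuna and 13 to 21.6 CPM (median 16.4) in celecoxib jejuna. Its change was -0.48 ± 0.13, a ratio of 0.715 (adjusted p = 0.113). Mki67 was at 75.1 to 184 CPM (median 126) in naproxen jejuna and 142 to 238 CPM (median 175) in celecoxib jejuna, a change of -0.53 ± 0.16 (adjusted p = 0.124). Cdc20, an activator of the anaphase-promoting complex, was at 4.43 to 20.8 CPM (median 15.9) in naproxen jejuna and 18.4 to 30.4 CPM (median 22.1) in celecoxib jejuna, a change of -0.57 ± 0.18 (adjusted p = 0.128). For all 3 genes the median naproxen jejunum lay under the lowest celecoxib jejunum, and the upper naproxen values overlapped the lower celecoxib values. Cdc20 shares 53 of 1868 exon bases with Elovl1 on the opposite strand.

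Kif20a, a motor of the central spindle, was at 3.78 to 15.9 CPM (median 11.9) in naproxen jejuna and 13.1 to 20.8 CPM (median 15.5) in celecoxib jejuna, a change of -0.56 ± 0.18 (adjusted p = 0.128). It shares 1271 of 4338 exon bases with Cdc23 on the opposite strand. By role, 2 of 2 chromosome protein genes, 4 of 4 cyclin and Cdk1 genes, 3 of 4 checkpoint genes, 3 of 4 kinase and passenger genes and 5 of 6 spindle genes were lower at an unadjusted p under 0.05. In contrast 1 of 3 centromere genes and neither Foxm1 (-0.10 ± 0.14) nor Mybl2 (-0.16 ± 0.15) met it.

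S phase genes were lower by less. Mcm2, an MCM helicase subunit, was at 16.3 to 28.9 CPM (median 22.5) in naproxen jejuna and 24.9 to 34.5 CPM (median 27.6) in celecoxib jejuna, a change of -0.35 ± 0.11 (adjusted p = 0.139). Mcm6 was at 25.2 to 60.6 CPM (median 43.7) in naproxen jejuna and 43.8 to 68.1 CPM (median 53.7) in celecoxib jejuna, a change of -0.33 ± 0.12 (adjusted p = 0.171). Mcm7, Mcm5 and Mcm4 were at -0.25, -0.38 and -0.32 ± 0.15, so 5 of the 10 licensing and firing genes were lower at an unadjusted p under 0.05. None of the 5 clamp and nucleotide supply genes and none of the 3 G1/S regulators met it. Pcna was at -0.22 ± 0.15, Rrm2 at -0.09 ± 0.21, Gmnn at -0.06 ± 0.16 and E2f1, which encodes an E2F factor, at -0.03 ± 0.15.

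**Figure D4:**
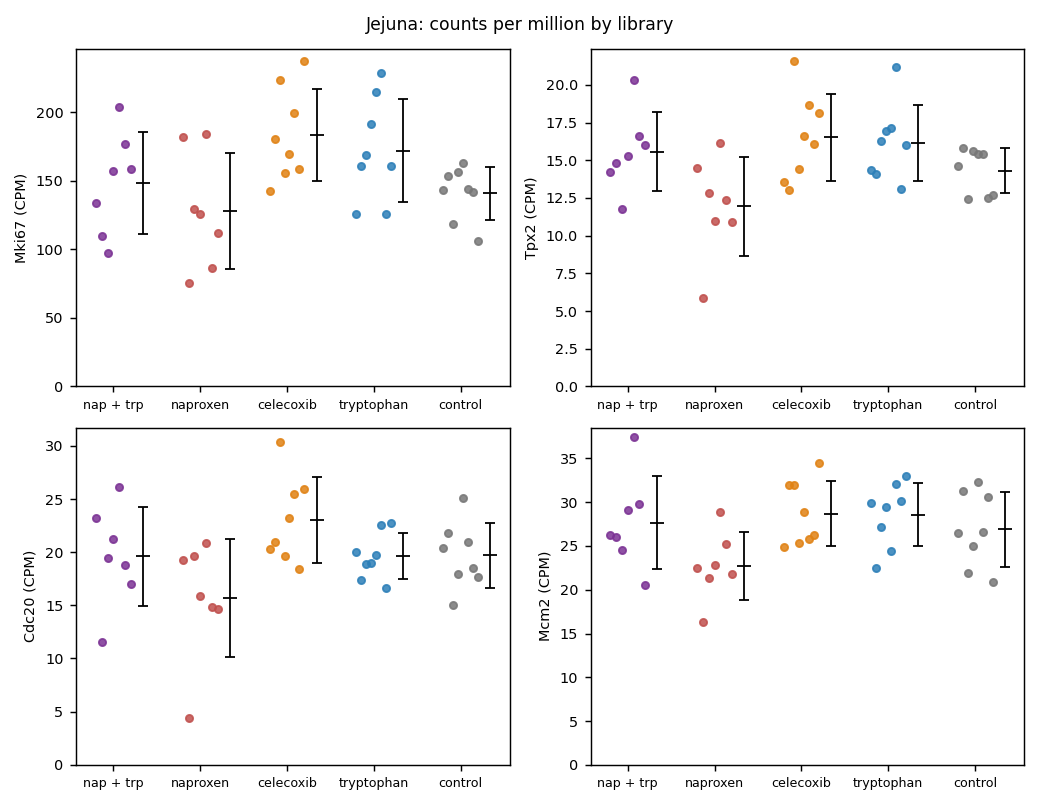
Levels (CPM) of Mki67, Tpx2, Cdc20 and Mcm2 in jejuna given naproxen plus tryptophan, naproxen, celecoxib, tryptophan, or none of these; points are libraries, bars are means with SD. For Tpx2 the naproxen jejuna run from 5.86 to 16.2 CPM and the celecoxib jejuna from 13 to 21.6 CPM.

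Other changes accompanied the comparison of naproxen with celecoxib. At an unadjusted p under 0.05, 1889 of all 17185 tested genes were higher and 1322 lower. Markers of Paneth cells, the secretory cells at the crypt base, were lower at a median of -1.16 (5 of 6 at an unadjusted p under 0.05), with a summed level of 2370 to 12400 CPM (median 6560) in naproxen jejuna and 9090 to 22200 CPM (median 15200) in celecoxib jejuna. Crypt stem cell markers were lower at -0.21 (2 of 10), with sums of 378 to 1000 CPM (median 858) in naproxen jejuna and 811 to 1130 CPM (median 1010) in celecoxib jejuna. Fibroblast markers were higher at 0.71 (3 of 6), with sums of 1220 to 4530 CPM (median 2360) in naproxen jejuna and 758 to 2900 CPM (median 1360) in celecoxib jejuna. Goblet cell markers were at -0.40 (3 of 6), with sums of 6560 to 14300 CPM in naproxen jejuna and 12500 to 15900 CPM in celecoxib jejuna. Endothelial markers were at 0.68 (3 of 6), with sums of 155 to 616 CPM in naproxen jejuna and 110 to 354 CPM in celecoxib jejuna. B cell markers were at 1.87 (2 of 7), with sums of 7.54 to 92 CPM in naproxen jejuna and 5.66 to 64.4 CPM in celecoxib jejuna. The part of the tissue's cell makeup in the result was not tested.

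Single jejuna and batches differed among themselves. Naproxen replicate 7 was the lowest of its group for 21 of 25 mitotic and 15 of 18 S phase members and held the lowest crypt stem sum, 378 CPM, and the lowest Paneth sum, 2370 CPM. Naproxen replicate 3 was the highest for 22 of 25 and 16 of 18. Without naproxen replicate 7 the count of lower members was 12 and the median over all members -0.24, against -0.33 with all jejuna. Without celecoxib replicate 2 the count was 12, without celecoxib replicate 8 or naproxen replicate 4 it was 14, and without naproxen replicate 5 it was 15. Leaving out naproxen replicate 6 instead raised it to 30, and 6 members were then called: Mki67, Cdk1, Cdc20, Kif20a, Tpx2 and Prc1. That fit called 498 of 17276 genes of all kinds. In the 4 dissection batches the median over the members was -0.66, -0.42, -0.01 and -0.55, with 1 or 2 naproxen jejuna in each.

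**Figure D5:**
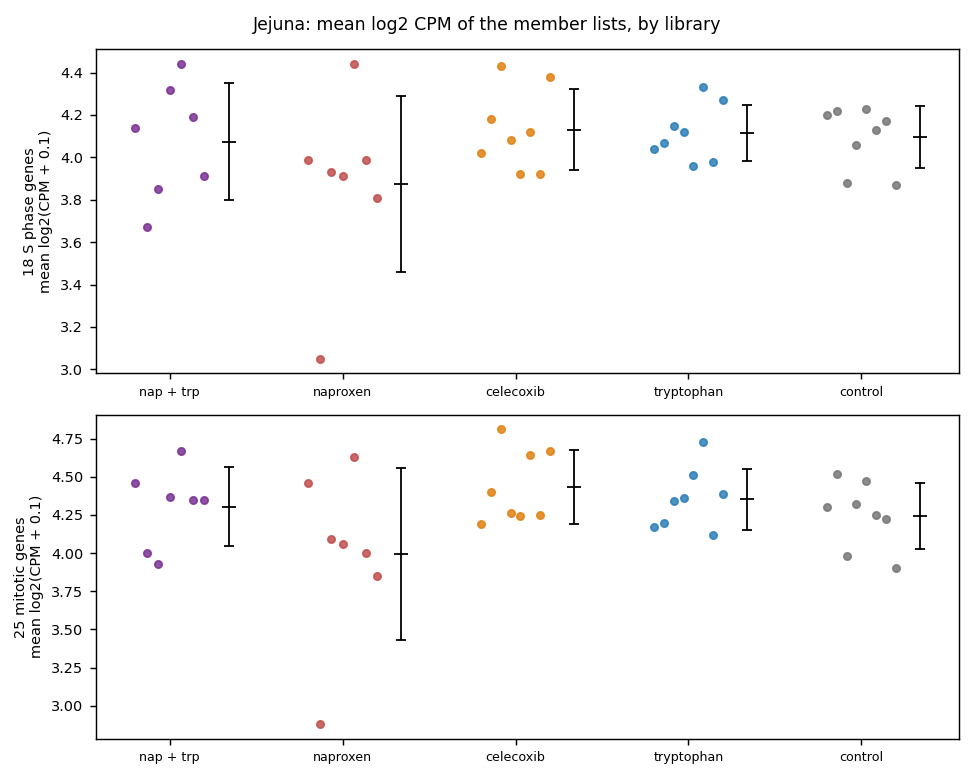
Mean log2(CPM + 0.1) of the 18 S phase and of the 25 mitotic genes in each jejunum library, by group; points are libraries and bars are means with SD. The mitotic mean is 4.00 ± 0.56 in naproxen jejuna, from 2.88 to 4.63, and 4.43 ± 0.24 in celecoxib jejuna.

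Against control jejuna, naproxen and celecoxib stood on opposite sides of the controls. These comparisons share their control jejuna, and the naproxen jejuna are those of the contrast above. The mitotic mean was 4.30 ± 0.26 with naproxen plus tryptophan, 4.00 ± 0.56 with naproxen, 4.43 ± 0.24 with celecoxib, 4.35 ± 0.20 with tryptophan and 4.24 ± 0.22 in controls, and the S phase mean was 4.07 ± 0.27, 3.87 ± 0.42, 4.13 ± 0.19, 4.12 ± 0.13 and 4.10 ± 0.15 in the same order (SD, n = 7, 7, 8, 8 and 8). Mki67 averaged 148 ± 37.2, 128 ± 42.5, 183 ± 33.9, 172 ± 37.5 and 141 ± 19.3 CPM in the same order. The differences from control in these means were smaller than the spread among naproxen jejuna.

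Naproxen against control gave a negative change for 38 of 43 members, with close medians for the lists, -0.26 for mitotic and -0.21 for S phase genes. No member was called, beside 0.0116% of 17185 genes. At an unadjusted p under 0.05, 6 members were lower, 4 S phase and 2 mitotic, beside 8.07% of all genes. DESeq2 and limma-voom each gave 8 and called none. Kif20a was at 3.78 to 15.9 CPM (median 11.9) in naproxen jejuna and 11.8 to 17.6 CPM (median 14.8) in control jejuna, a change of -0.42 ± 0.18 (adjusted p = 0.264). Tk1, a thymidine kinase of the nucleotide salvage pathway, was at 9.06 to 38.2 CPM (median 22.5) in naproxen jejuna and 23 to 32.7 CPM (median 28.9) in control jejuna, a change of -0.33 ± 0.16 (adjusted p = 0.306). Pcna was at 36.1 to 96.9 CPM (median 64.6) in naproxen jejuna and 63.8 to 107 CPM (median 79.4) in control jejuna, a change of -0.32 ± 0.15 (adjusted p = 0.309). The naproxen range enclosed most of the control range for these genes. Mcm2 (-0.25 ± 0.11), Tpx2 (-0.28 ± 0.13) and Gmnn (-0.32 ± 0.16) made up the 6. Mybl2 (0.23) and E2f1 (0.21) had positive changes.

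The count of 6 varied with single jejuna. Without naproxen replicate 7, or without control replicate 8, no member was lower at an unadjusted p under 0.05, and without naproxen replicate 4 or 5 there was 1. There were 2 without control replicate 2 or 7 and 3 without control replicate 3 or 5 or naproxen replicate 1, whereas there were 19 without naproxen replicate 3 and 17 without naproxen replicate 6. The batch medians over the members were -0.80, -0.08, -0.05 and -0.21. Paneth cell markers were lower at -0.99 (5 of 6), with control sums of 5180 to 17400 CPM (median 13800), goblet markers at -0.34 (2 of 6) and crypt stem markers at -0.09, with control sums of 744 to 1180 CPM (median 1040). Their part in the result was not tested.

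Celecoxib against control gave positive changes for 36 of 43 members (median 0.20 for mitotic and 0.08 for S phase genes). No member and no other gene was called (0% of 17185). At an unadjusted p under 0.05, 4 members were higher, all mitotic, beside 2.01% of all genes, and DESeq2 and limma-voom each gave 4 and called none. Mki67 was at 142 to 238 CPM (median 175) in celecoxib jejuna and 106 to 163 CPM (median 144) in control jejuna, a change of 0.38 ± 0.16 (adjusted p = 0.957). The median celecoxib jejunum lay above the highest control. Cenpe was at 18.3 to 30 CPM (median 22.7) in celecoxib jejuna and 14.8 to 23.2 CPM (median 18.7) in control jejuna, a change of 0.39 ± 0.15 (adjusted p = 0.957). Mybl2 (0.39 ± 0.15) and Kif23 (0.27 ± 0.12) were the others. The batch medians were -0.11, 0.36, -0.01 and 0.27, on both sides of 0, and 2 members were left without celecoxib replicate 8.

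Tryptophan against control in jejunum gave small positive changes for 31 of 43 members (median 0.10 for mitotic and 0.02 for S phase genes). No gene was called (0% of 17185), and no member had an unadjusted p under 0.05 by edgeR, DESeq2 or limma-voom. The smallest p was that of Cenpe, at 0.29 ± 0.15 (adjusted p = 0.999), followed by Mki67 at 0.27 ± 0.16. Leaving out control replicate 8 or tryptophan replicate 4 gave 1 higher member. Batch medians were -0.18, 0.23, 0.16 and 0.17. In hearts, Mki67 had been at 0.63 ± 0.25 under the same treatment, but hearts and jejuna came from different experiments and library types, and the difference between tissues was not tested.

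Naproxen plus tryptophan against control left the jejunum members near even: 25 positive and 18 negative, with medians of 0.02 for mitotic and 0.00 for S phase genes. No gene was called (0% of 17185), and 1 member, Mybl2, was higher at an unadjusted p under 0.05 (0.35 ± 0.15, adjusted p = 0.792), beside 2.53% of all genes. Mybl2 was at 4.84 to 8.16 CPM (median 6.45) with both agents and 3.31 to 7.71 CPM (median 5.09) in controls, so the groups overlapped. Of 15 omissions of 1 jejunum, 7 left no member higher at that threshold. These were control replicates 1, 3, 4 and 6 and naproxen plus tryptophan replicates 2, 3 and 6. Without control replicate 1 or naproxen plus tryptophan replicate 2, 3 or 6, 1 S phase member was lower instead. Leaving out control replicate 2 gave 2 higher members. DESeq2 gave 1 higher and 1 lower member and limma-voom 2 higher, and neither called one.

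Adding tryptophan to naproxen gave a positive change for all 43 members in jejunum (median 0.26 for mitotic and 0.16 for S phase genes). No gene was called (0% of 17185), and 3 members were higher at an unadjusted p under 0.05, beside 1.52% of all genes. DESeq2 gave 4 and limma-voom 7, with none called. Tpx2 was at 11.8 to 20.3 CPM (median 15.3) with naproxen plus tryptophan and 5.86 to 16.2 CPM (median 12.4) with naproxen, a change of 0.38 ± 0.13 (adjusted p = 0.996). Mcm2 was at 20.5 to 37.5 CPM (median 26.2) with naproxen plus tryptophan and 16.3 to 28.9 CPM (median 22.5) with naproxen, a change of 0.29 ± 0.12 (adjusted p = 0.996). The third was Bub1b, at 0.31 ± 0.15. Batch medians were 0.52, 0.13, 0.17 and 0.33, all positive. Without naproxen replicate 7 the median over all members was 0.10, against 0.23 with it, and 1 member was left. Without naproxen replicate 6, naproxen replicate 3 or naproxen plus tryptophan replicate 7 there were 15, 9 and 7, without naproxen plus tryptophan replicate 1 there were 5, and without its replicate 3 there was 1. B cell markers were lower with tryptophan added, at a median of -2.97 (7 of 7), with sums of 2.03 to 18.4 CPM (median 7.55) with both agents and 7.54 to 92 CPM (median 49) with naproxen, and their part in the result was not tested.

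Whether tryptophan acted differently with and without naproxen was tested as an interaction. It was positive for 39 of 43 members with a median of 0.17 for both lists, no gene was called (0% of 17185), and no member had an unadjusted p under 0.05 by edgeR, DESeq2 or limma-voom. The smallest p was that of Kif20a, at 0.36 ± 0.25 (adjusted p = 1). With that standard error an interaction of the size of the single effects could not be told from 0.

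The gap between the lists is given as a description, without a test. The mitotic median minus the S phase median was 0.59 in naproxen hearts of experiment 2 against their controls, and it ran from 0.31 to 0.64 when each heart was left out in turn. In naproxen jejuna the medians were -0.26 for mitotic and -0.21 for S phase genes against control, and -0.42 and -0.25 against celecoxib. In hearts of experiment 2, 16 of 25 mitotic and 4 of 18 S phase members averaged under 1 CPM. Standard errors were wide at such levels: that of Ccnb1 was 0.43 and that of Pcna 0.06 for naproxen against control.

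Further genes of the same processes, from lists that do not overlap the members, are given with the share of all genes at the same threshold. They were measured in the same libraries as the members, naproxen replicate 3 of experiment 2 included. Leaving out single libraries was not done for these lists. In naproxen hearts of experiment 2, 17 of 49 other mitotic genes were higher at an unadjusted p under 0.05 (median 0.43) and 2 of 34 other replication genes (median 0.08), beside 2.04% of all genes. In tryptophan hearts of experiment 3 these counts were 3 of 35 (median 0.15) and 1 of 34 (median 0.06), beside 1.63%. In naproxen against celecoxib jejuna, 21 of 56 other mitotic genes (median -0.28) and 8 of 36 other replication genes (median -0.20) were lower, beside 7.69%. Against control jejuna the counts for naproxen were 6 of 56 and 6 of 36, with medians of -0.13 and -0.10, beside 8.07% of all genes. None of these genes was called by edgeR in these comparisons.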

How the data were processed

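Poly-A RNA of whole hearts and ribosomal-RNA-depleted RNA of jejuna were sequenced. The table holds estimated counts per gene that, per the submitters' processing notes, come from Salmon 1.9.0 with R 4.2.2 on GRCm38. How transcript estimates were summed to genes, the annotation release and the strand setting are not given in the labels or the file header. The deposited expected counts were rounded to whole numbers, and 0 sample columns were left out. Labels tie animal identifiers to treatment and experiment, so each library was taken as 1 mouse. Exon lengths came from GENCODE vM21 and promoter sequences from RefSeq.

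Each experiment was fitted by itself on all its groups: genes were kept by filterByExpr at a minimum count of 10, scaled by TMM and tested with robust edgeR 4.0.16 quasi-likelihood fits in R 4.3.3, with Benjamini-Hochberg adjustment over all tested genes and calls at an adjusted p of 0.05. The 4 labelled dissection batches were a term in experiments 3 and 4. A joint model compared the naproxen effects of experiments 1 and 2. CPM values are edgeR's, scaled by TMM. Groups held 5 to 8 mice, and their spread sets the standard errors together with the counts, which were low for heart mitotic genes.

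The members and gene lists were chosen with earlier results of these data known. All 43 members could be named. Per comparison, the 5 members with the smallest p were eligible for full values, as was the highest member of each role. Printed promoters were those of up to 2 mitotic and 2 S phase members with the smallest p in the comparison with most members at an unadjusted p under 0.05, where a RefSeq window was available. Alternatives were DESeq2 1.42.0, limma-voom (limma 3.58.1), no filter on low counts, a replicate block, no dissection batch, the compared groups alone, DESeq2 size factors, lists without the cyclins E, E2f1, Gmnn, Foxm1 and Mybl2, a shorter promoter window and leaving out each library in turn. The fits were tested on simulated data.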

Additional observations from a re-analysis of the deposited data

Results flagged for a closer look

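A sample was listed when the gap between the highest or lowest mouse of a group and the next exceeded Dixon's critical value, which chance does in about 1 of 20 groups, and 9 of 126 groups tested met it. In experiment 2, naproxen replicate 3 accounted for 4 of them: Mki67 at 12.4 CPM (group median 3.33), Top2a at 6.57 CPM (median 1.42), Rrm2 at 3.74 CPM (median 1.79) and an S phase mean log2(CPM + 0.1) of 2.08 (median 1.67). In the same experiment, naproxen plus tryptophan replicate 6 was low for Kif23, at 0.77 CPM (median 1.4). Male control replicate 9 of experiment 1 was high for Mki67, at 6.79 CPM (median 3.78), and for the mitotic mean log2(CPM + 0.1), at 0.61 (median 0.11). Tryptophan replicate 3 of experiment 3 was low for the S phase mean, at 1.53 (median 1.77). Naproxen replicate 7 of the jejuna was low for Cdc20, at 4.43 CPM (median 15.9). The library identities behind these values were not tested.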

How the results depend on the processing

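No median change over all members changed direction under the alternatives run, other than when single libraries were left out. Small S phase medians did, as from -0.01 to 0.01 in naproxen plus tryptophan against control jejuna. The cause of the shifts below was not tested. Without the filter on low counts, members called were 2 in tryptophan hearts (Mki67 and Top2a) and 11 in naproxen against celecoxib jejuna, in a setting that called 179 and 1784 genes of all kinds. DESeq2 called 1 member in naproxen plus tryptophan against control hearts (Mcm4), where it called 477 of 16085 genes of all kinds. It called 1 in naproxen against celecoxib jejuna (Tpx2), where it called 291 of 17185 genes. Fitting the compared groups alone called 1 in naproxen plus tryptophan against control hearts, with 231 of 15511 genes called.

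Counts at an unadjusted p under 0.05 moved as follows. With limma-voom they were 1 in naproxen females of experiment 1 (2 by edgeR), 2 lower in naproxen males (1), 13 in naproxen hearts of experiment 2 (22), 2 for naproxen plus tryptophan against control jejuna (1) and 7 against naproxen jejuna (3). DESeq2 gave 2 lower in naproxen males. Without the filter there were 2 lower in naproxen males, 11 lower in naproxen jejuna (6) and 2 in tryptophan jejuna (0). Naproxen plus tryptophan then gave 0 higher and 1 lower against control jejuna and 11 higher against naproxen jejuna. That setting called 1182 genes of all kinds in naproxen jejuna (2 with the filter) and 253 in tryptophan jejuna (0). For naproxen plus tryptophan it called 476 genes against control (0) and 333 against naproxen jejuna (0). The share of all genes at an unadjusted p under 0.05 was not taken under the alternatives. With the compared groups alone there were 0 lower in naproxen males, 1 lower in naproxen jejuna, 3 in tryptophan jejuna, 1 for naproxen plus tryptophan against naproxen jejuna and 9 for naproxen against celecoxib (23). Without the dissection batch, 3 were lower in naproxen jejuna. With only the 150 bases before the start searched, 35.0% of mitotic promoters held a CHR element, beside 11.2% of all genes, and 3 of 15 S phase promoters an E2F site, instead of 6.

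Whether replicate numbers shared between groups pair the libraries was not settled, because pairs with different numbers were not correlated. Same-numbered deviations correlated from -0.47 to 0.41 (median 0.01) over the 73 jejunum pairs. Over the 22 pairs of experiment 2 they correlated from -0.38 to 0.24 (median 0.04). The medians were 0 in experiment 1 and -0.2 in experiment 3. With a replicate block, the counts were 14 in naproxen hearts of experiment 2, 3 in tryptophan hearts and 1 in naproxen jejuna.

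Leaving out each library in turn, 248 omissions in all, the counts ranged from 1 to 6 for naproxen females of experiment 1, 0 to 3 for males, 1 to 7 for the sex difference, 5 to 23 for naproxen hearts of experiment 2, 6 to 13 for naproxen plus tryptophan against control hearts, 2 to 5 against naproxen hearts, 0 to 2 for experiment 2 minus experiment 1 and 2 to 9 for tryptophan hearts. In jejuna they ranged from 2 to 6 for celecoxib, 0 to 19 for naproxen and 0 to 1 for tryptophan. For naproxen plus tryptophan they ranged from 0 to 2 against control and from 1 to 15 against naproxen. Naproxen against celecoxib gave 12 to 30, with 0 to 6 members called. The omission with 6 members called had calls for 498 of 17276 genes of all kinds. The mitotic median minus the S phase median ran from -0.62 to -0.13 for the sex difference, from 0.31 to 0.64 for naproxen hearts of experiment 2 and from -0.3 to 0.04 for naproxen plus tryptophan against naproxen hearts. Many heart mitotic genes averaged under 1 CPM, where counts are low at these depths.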

Other observations

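Genes that govern the entry into the cycle and genes that hold it back were listed apart from the replication and mitotic genes, and no difference between the lists was tested. In naproxen hearts of experiment 2, 1 of 11 tested G1 entry genes (median 0.04) was higher at an unadjusted p under 0.05. Of 26 brakes of the cycle (median 0.01), 1 was higher and 1 lower. Of all 16085 tested genes, 328 (2.04%) were higher and 256 lower. In naproxen against celecoxib jejuna, 1 G1 entry gene was higher and 1 lower of 11 (median -0.06), and 1 of 26 brakes was lower (median -0.01). There, 1889 of all 17185 tested genes were higher and 1322 (7.69%) lower. None of these genes was called by edgeR in these comparisons.

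The genes named here were chosen after their values were seen. E2f2, an activating E2F factor that is also high in developing red cells, averaged 3.43 CPM in naproxen females of experiment 1, against 0.447 CPM in control females (2.91 ± 0.75 on the log2 scale, edgeR adjusted p = 0.346), and 1.39 CPM in naproxen hearts of experiment 2, against 0.751 CPM in control hearts (0.89 ± 0.34, adjusted p = 1). Cdkn2c, which encodes the CDK4/6 inhibitor p18, averaged 6.96 CPM in naproxen jejuna, against 9.15 CPM in celecoxib jejuna (-0.41 ± 0.10, edgeR adjusted p = 0.0941). Ccnd1, cyclin D1, averaged 40.2 CPM in naproxen jejuna, against 52.5 CPM in celecoxib jejuna (-0.43 ± 0.19, edgeR adjusted p = 0.224), while Ccnd3, cyclin D3, averaged 44 CPM in naproxen jejuna, against 33.7 CPM in celecoxib jejuna (0.40 ± 0.19, edgeR adjusted p = 0.246).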
